A study of Mus musculus with 6 samples.

Results

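The 296 microRNA genes described here are those that the array measured through a probe set of their own, among 19938 genes measured in mouse embryonic stem cells. They were chosen by name: a probe set entered when its only gene symbol in the platform annotation was that of a microRNA gene, which 298 probe sets met, and a gene with several was represented by its brightest one. RNA from Dicer Fx/Fx cells, in which both Dicer alleles can be deleted, was hybridised to 6 Affymetrix arrays. The untreated group had 3 arrays of cells that the labels describe as not deleted, with no collection day given. The tamoxifen group had 3 arrays of the same genotype after 3 days with tamoxifen and 2 further days without it, collected on day 5, and labelled as deleted. Both groups carry the floxed alleles, and the labels name neither the recombinase nor the number of cell lines. The labels mention wild-type E14 cells given tamoxifen; such arrays were not analysed here, so an effect of the drug and an effect of the deletion cannot be told apart. Whether the 3 replicates of a group came from separate cultures is not stated, so the p-values speak only to the spread among these samples, and that spread may be technical.

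A microRNA gene is transcribed as a long primary transcript, often from an intron of another gene or as a cluster of several hairpins. The nuclear enzyme Drosha cuts the hairpins out, and Dicer then cuts each hairpin in the cytoplasm into a short duplex, of which one strand is loaded into an Argonaute protein and pairs with messenger RNAs mainly through its seed, bases 2 to 8. In mouse embryonic stem cells the miR-290 and miR-302 clusters, which share a seed, and the miR-17 family with a near relative of it are known for promoting the cell cycle, while the let-7 family accumulates on differentiation. No miR-290 probe set met the selection rule, and that cluster was not analysed here. Which of the primary transcript, the hairpin and the mature microRNA a probe set read was not tested.

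The miR-302 cluster held the largest changes among the members. It lies on the plus strand of chromosome 3 in GRCm38.p6, at chr3:127545228-127545807, where 5 hairpins stand within 580 bases, 43 to 65 bases apart. RefSeq places it inside Larp7, which is on the opposite strand and encodes a protein that binds the 7SK small nuclear RNA. RefSeq also lists a long noncoding RNA, Gm51018, on the hairpins' own strand, which spans all 5 and was not analysed here. The hairpins are shown because the probe sets differed along the cluster; they are from RefSeq, in genomic order, with the listed mature arms in capitals.
Mir302b: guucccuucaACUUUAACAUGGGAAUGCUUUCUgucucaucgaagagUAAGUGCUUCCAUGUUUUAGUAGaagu
Mir302c: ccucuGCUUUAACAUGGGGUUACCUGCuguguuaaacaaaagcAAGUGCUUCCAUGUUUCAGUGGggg
Mir302a: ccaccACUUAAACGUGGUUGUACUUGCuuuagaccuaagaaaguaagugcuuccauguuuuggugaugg
Mir302d: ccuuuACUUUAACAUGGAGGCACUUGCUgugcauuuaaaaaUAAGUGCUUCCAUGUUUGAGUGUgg
Mir367: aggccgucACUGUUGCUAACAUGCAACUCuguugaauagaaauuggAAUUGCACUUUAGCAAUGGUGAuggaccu

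The mature 3p arms of this cluster and the 5p arms of the miR-17 family are set together because their seeds, in capitals, are alike but not the same. As listed in RefSeq, miR-302c-3p begins 1 base later than its neighbours, so that its bases 2 to 8 are shifted. For Mir302a the RefSeq source used here lists the 5p arm only. Its 3p arm is therefore not printed below and stands in lower case in the hairpin above. The miR-367 seed is a different one, shared with Mir25, Mir32, Mir363, Mir92-2 and Mir92b.
mmu-miR-302b-3p: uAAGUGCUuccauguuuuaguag
mmu-miR-302d-3p: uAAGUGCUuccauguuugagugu
mmu-miR-302c-3p: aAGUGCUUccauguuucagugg
mmu-miR-367-3p: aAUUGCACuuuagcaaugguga
mmu-miR-17-5p: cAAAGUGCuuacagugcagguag
mmu-miR-20a-5p: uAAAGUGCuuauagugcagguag
mmu-miR-20b-5p: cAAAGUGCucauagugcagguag
mmu-miR-93-5p: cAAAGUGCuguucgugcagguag
mmu-miR-106a-5p: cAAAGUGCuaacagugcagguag
mmu-miR-106b-5p: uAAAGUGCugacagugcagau

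The other members that passed the test have the following mature sequences, with the seed in capitals. The pair miR-30a and miR-30e share a seed that 5 members have, 2 of them called. The other 4 printed here have different seeds, of which that of let-7e is shared by 9 members and that of miR-181c by 6.
mmu-let-7e-5p: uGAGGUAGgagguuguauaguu
mmu-miR-181c-5p: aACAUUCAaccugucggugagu
mmu-miR-30a-5p: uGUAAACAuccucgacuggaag
mmu-miR-30e-5p: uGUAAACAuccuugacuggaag
mmu-miR-298-5p: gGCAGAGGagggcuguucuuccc
mmu-miR-652-3p: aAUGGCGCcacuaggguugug

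Of the 296 members, 9 were higher after tamoxifen and 0 were lower at an adjusted p under 0.05 (limma, Benjamini-Hochberg over all 19938 genes). The 9 are 3.04% of the members, against 3.79% of all genes called higher, and all genes called lower were 3.99%. The share of members called higher is near the background and is no result about microRNA genes as a group. The members were Mir302b, Mir302c, Mir302d, Mirlet7e, Mir181c, Mir30a, Mir298, Mir30e and Mir652. With the replicate number as a block, which pairs the arrays of equal number, limma called 20 members higher and 0 lower, 6.76% of members, against 7.87% of all genes called higher and 9.54% called lower. At an unadjusted p under 0.05, 41 members were higher and 3 were lower, together 14.9% against 24.5% of all genes. When every probe set of the table entered the fit, named or not, limma called 0 members, with Mir181c nearest to the threshold (adjusted p = 0.0526). Several fits with an array left out kept few calls. Without untreated replicate 2 or without tamoxifen replicate 3, 0 members passed. Without tamoxifen replicate 2, 1 passed, and without untreated replicate 3, 2 did. Calls over all genes, in either direction, fell as well, from 1552 to 516, 539, 355 and 908 in the same order. In bulk samples, fewer cells with a transcript and less of it per cell cannot be told apart.

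The members were mostly dim. Their untreated signals on the log2 scale ranged from 3.64 to 10.60 with a median of 5.54, against a median of 7.80 for all genes. A signal depends on the probes as well as on the RNA, so it gives no order of abundance, and RMA compresses the changes of dim probe sets towards 0. The members' median signal was 5.52, 5.48 and 5.57 on the untreated arrays and 5.61, 5.65 and 5.64 on the tamoxifen arrays. The median change of the members was 0.05, with the middle 50% of them between -0.02 and 0.12, against 0.01 for all genes. After cyclic loess normalisation these medians were 0.02 and 0.00. Signs were uneven, with 197 members above 0, or 66.6%, against 53.2% of all genes.

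Groups that did not overlap showed the same uneven split. All 3 tamoxifen values lay above all 3 untreated values in 49 members, 16.6% against 14.5% of all genes. They lay below in 14 members, 4.73% against 14.8% of all genes. Both shares differed with signal and are given by bin in the next paragraph. Only 4 members differed by more than 0.5 on the log2 scale, and all of them, Mir302a, Mir302b, Mir302c and Mir302d, belong to one cluster.

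Signal divided the members further. All genes were cut by untreated signal into 4 bins of equal size, with limits at 6.06, 7.80 and 9.83. From the dimmest bin upwards they held 179, 81, 35 and 1 of the members. In the dimmest bin 6 members were called higher, 3.35% against 0.883% of all genes there, and 3 of the 6 were the miR-302 neighbours. In bin 2, 2 members were called higher, 2.47% against 3.19% of all genes, and in bin 3, 1 was, 2.86% against 6.78%. With the block the member calls in these bins, from the dimmest up, were 10, 5 and 5. The share of all genes called with the block was not computed by bin. These counts therefore have no background and give no result about the members. The median change of the members was 0.01, 0.10 and 0.11 in these bins, against 0.03, 0.06 and -0.04 for all genes there. The share of members with a mean above 0 was 55.9% in the dimmest bin, against 64.8% of all genes, and 82.9% in bin 3, against 42.1%. The excess of positive signs thus stood in bins 2 and 3 and not in the dimmest. Tamoxifen values lay wholly above the untreated ones in 11.17% of members in the dimmest bin, against 10.95% of all genes there. In bins 2 and 3 these shares were 22.2% against 18.2% and 31.4% against 15.5%. Tamoxifen values lay wholly below in 7.26% of members in the dimmest bin, against 3.29%. In bins 2 and 3 the shares were 1.23% against 6.5% and 0% against 22.6%. The lower share of members below thus held in bins 2 and 3 and was reversed in the dimmest. No test was made of these shares.

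**Figure D1:**
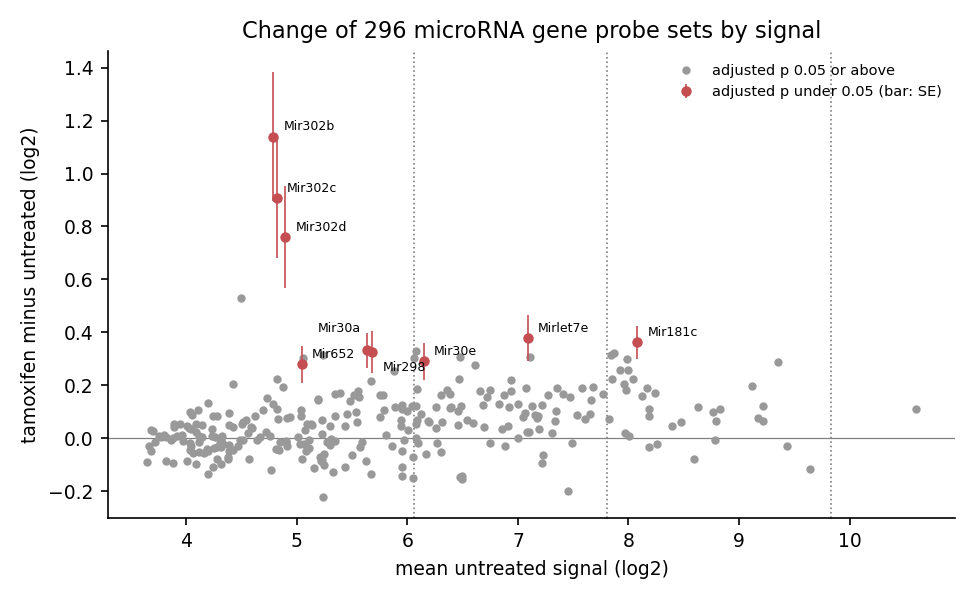
Change of each of the 296 microRNA genes (log2, tamoxifen minus untreated) against its mean untreated signal (log2), 1 point per gene. Red points with SE bars are the 9 with an adjusted p under 0.05 and dotted lines mark the limits of the 4 signal bins; Mir302b, Mir302c and Mir302d stand above the rest at 1.14, 0.91 and 0.76, at signals under 5.

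Within the miR-302 cluster 4 of 5 probe sets had tamoxifen values wholly above the untreated ones, and 3 passed the test. Mir302b, the first hairpin, read 4.49, 4.88 and 4.99 on untreated arrays 1, 2 and 3, and 5.29, 6.19 and 6.29 on tamoxifen arrays 1, 2 and 3. The groups did not overlap, and array 1 was the lowest in both. The change was 1.14 ± 0.24 (SE, n = 3 arrays a group), or 2.20-fold, and it passed the test (limma adjusted p = 0.0282). Mir302c read 4.59, 4.85 and 5.00 untreated and 5.12, 5.98 and 6.08 after tamoxifen. Its change was 0.91 ± 0.23, or 1.88-fold (limma adjusted p = 0.0460). Again the groups stood apart with array 1 lowest in each.

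Mir302d read 4.52, 5.01 and 5.14 untreated and 5.32, 5.63 and 6.004 after tamoxifen, also without overlap. Its change was 0.76 ± 0.19, or 1.69-fold (limma adjusted p = 0.0481). Mir302a, which lies between Mir302c and Mir302d, read 4.37, 4.62 and 4.50 untreated and 4.68, 5.03 and 5.37 after tamoxifen. Its difference of 0.53 ± 0.15 did not pass (limma adjusted p = 0.0723), although the groups did not overlap, and it passed with the replicate block (limma adjusted p = 0.0107). Mir367, the last hairpin, read 4.07, 4.12 and 4.14 untreated and 4.02, 4.19 and 4.43 after tamoxifen. These groups overlapped, and the difference was 0.11 ± 0.10 (limma adjusted p = 0.554).

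The median change of the 5 probe sets was 0.76, beside 0.01 over all genes, and it was 0.72 to 0.75 after median centring, renewed quantile or cyclic loess normalisation. By array number it was 0.53, 0.62 and 0.87 for pairs 1, 2 and 3. Each of the 3 calls was kept without tamoxifen replicate 1 and missed the threshold when any of the other 5 arrays was left out. The changes in those 6 fits stayed at 0.96 to 1.46 for Mir302b, 0.73 to 1.21 for Mir302c and 0.58 to 0.93 for Mir302d. Mir302c and Mir302d also missed it after cyclic loess (limma adjusted p = 0.0562 and 0.0639). With the block the adjusted p of Mir302b was 0.0005. The 5 hairpins are neighbours in the genome and are no independent replicates of a change.

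**Figure D2:**
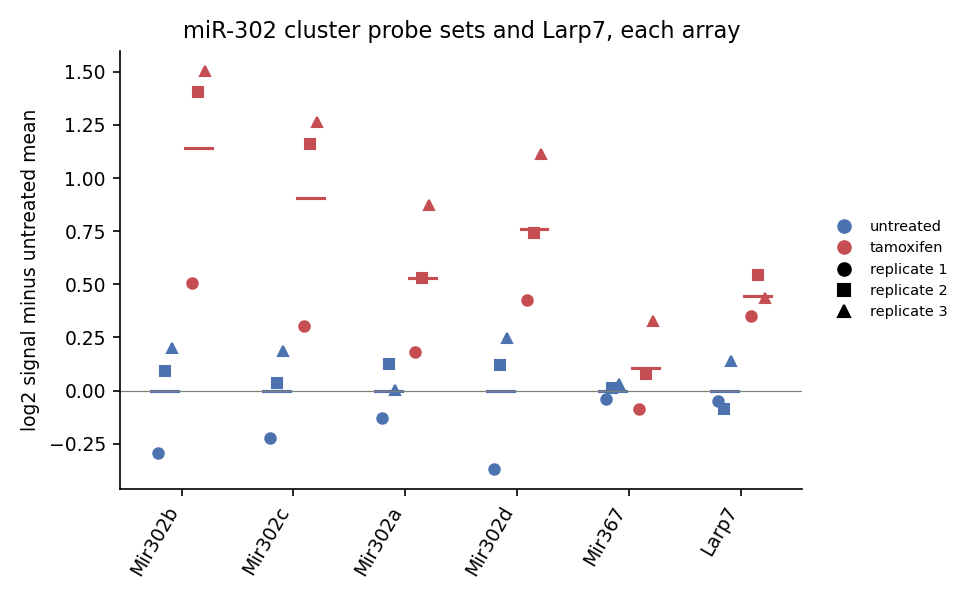
Log2 signal of the 5 miR-302 cluster probe sets and Larp7 on each of the 6 arrays, minus the untreated mean of that probe set. Symbols mark the replicate number and bars the group means; the groups are apart for Mir302a to Mir302d and Larp7 and overlap for Mir367, and replicate 1 is the lowest tamoxifen array in every column.

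Larp7 was higher as well. It read 10.86, 10.83 and 11.05 on the untreated arrays and 11.27, 11.46 and 11.35 after tamoxifen, with no overlap. Its group means were 10.91 ± 0.12 and 11.36 ± 0.10 (SD, n = 3), and the change was 0.44 ± 0.08 (limma adjusted p = 0.0163). Its second probe set gave 0.40 ± 0.09. The call on Larp7 was lost without untreated replicate 2, tamoxifen replicate 2 or tamoxifen replicate 3, at changes of 0.40, 0.39 and 0.45.

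The change of each hairpin was then set against that of Larp7 on the same arrays. The member's change exceeded that of Larp7 by 0.70 ± 0.30 for Mir302b (SE; exact two-sided permutation p = 0.2), by 0.46 ± 0.28 for Mir302c (exact permutation p = 0.3) and by 0.32 ± 0.24 for Mir302d (exact permutation p = 0.5). For Mir302a the difference was 0.09 ± 0.21 (exact permutation p = 0.7). Mir367 changed less than Larp7, by -0.34 ± 0.13 (exact permutation p = 0.1). The smallest p that 3 arrays against 3 allow is 0.1, so none of these 5 comparisons could pass 0.05. By pair of equal number the difference from Larp7 was 0.40, 0.68 and 1.01 for Mir302b, 0.12, 0.49 and 0.78 for Mir302c and -0.45, -0.56 and -0.00085 for Mir367, of one sign in each. For Mir302a and Mir302d the sign varied between pairs. An exact test on 3 pairs cannot go below 0.25, so pairing gives no smaller p. RefSeq puts the hairpins and Larp7 on opposite strands, and whether the hairpins' probe sets read a single strand was not tested.

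The miR-17 family is spread over 3 paralogous clusters, miR-17-92, miR-106b-25 and miR-106a-363, which are known for promoting growth and cell division. All 13 of their measured probe sets had a mean above 0, 6 had tamoxifen values wholly above the untreated ones, a split found in 14.5% of all genes, and 0 passed the test. With the block 3 of the 13 passed. Members of one cluster are neighbours in the genome, so the 13 are no independent draws to set against the share of all genes. The median changes were 0.28 in miR-17-92 (range 0.19 to 0.30, 5 probe sets), 0.26 in miR-106b-25 (0.07 to 0.31, 3 probe sets) and 0.31 in miR-106a-363 (0.05 to 0.33, 5 probe sets). Untreated replicate 1 was the lowest of the 6 arrays in 12 of the 13 probe sets, Mir25 being the exception. Over the 13, the median difference was 0.49 in pair 1, 0.19 in pair 2 and 0.00 in pair 3. Without untreated replicate 1 the median change over the 13 fell from 0.28 to 0.13, and that of miR-106a-363 from 0.31 to 0.08. The part of this array in the differences was not tested further.

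Mir106a showed the array most plainly. It read 5.91, 6.70 and 6.81 untreated and 6.96, 6.68 and 6.71 after tamoxifen. Only untreated replicate 1 was low, and the other 5 arrays overlapped. The mean difference was 0.31 ± 0.21 (limma adjusted p = 0.411).

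The hairpins of miR-106b-25 depended less on that array. Mir106b read 7.75, 7.86 and 7.91 untreated and 8.01, 8.22 and 8.23 after tamoxifen, with no overlap. Its difference was 0.31 ± 0.08, just short of the threshold (limma adjusted p = 0.0504), and it passed with the replicate block (limma adjusted p = 0.0091). Mir93, its neighbour, read 7.89, 8.01 and 8.08 untreated and 8.12, 8.38 and 8.26 after tamoxifen. The groups stood apart by a small gap, and the difference of 0.26 ± 0.08 passed only with the block (limma adjusted p = 0.0989 without it and 0.0254 with it). Mir25, the last hairpin of the cluster, overlapped between groups, at 9.24, 9.26 and 9.14 against 9.36, 9.38 and 9.10. All 3 lie in Mcm7, a subunit of the replicative helicase, whose own difference was 0.11 ± 0.06 (limma adjusted p = 0.268).

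In miR-17-92, Mir17 read 6.47, 6.62 and 6.75 untreated and 6.80, 7.07 and 6.81 after tamoxifen. The groups did not overlap, although untreated replicate 3 came close to the tamoxifen arrays. Its difference of 0.28 ± 0.10 passed only with the block (limma adjusted p = 0.123 and 0.0468). Mir18, the gene of miR-18a, read 9.10, 9.40 and 9.56 untreated and 9.68, 9.64 and 9.60 after tamoxifen, a difference of 0.29 ± 0.11 (limma adjusted p = 0.138). The host transcript Mir17hg differed by 0.04 ± 0.07 (limma adjusted p = 0.797). The 6 members with the seed AAAGUGC, drawn from all 3 clusters, had a median change of 0.27 and ranged from 0.05 to 0.31.

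**Figure D3:**
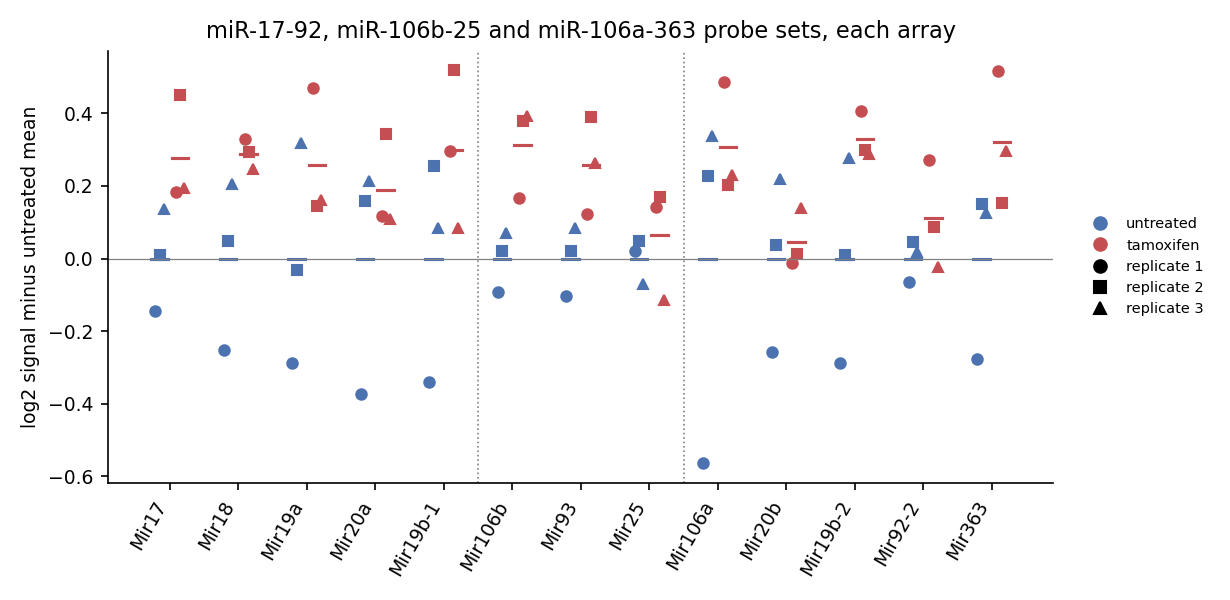
Log2 signal of the 13 probe sets of miR-17-92, miR-106b-25 and miR-106a-363 on each array, minus the untreated mean of that probe set, with bars at the group means. Untreated replicate 1 (blue circles) is the lowest array in 12 of the 13, Mir25 being the exception.

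The let-7 family did not move as a group. Its 10 measured members had a median change of 0.00 and a range from -0.13 to 0.38, with 5 above 0 and 5 below. Mirlet7e alone passed the test. It read 7.25, 7.08 and 6.93 untreated and 7.46, 7.54 and 7.40 after tamoxifen, groups that did not overlap, and rose by 0.38 ± 0.09 (limma adjusted p = 0.0364), a call kept in 1 of the 6 fits that left out an array. Its cluster neighbours Mir99b and Mir125a differed by 0.18 ± 0.07 and 0.08 ± 0.07 (limma adjusted p = 0.173 and 0.548). Their host Spaca6, a sperm protein gene, differed by 0.03 ± 0.12 (limma adjusted p = 0.900).

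Mirlet7g had the lowest value of the family, a difference of -0.13 ± 0.13 (limma adjusted p = 0.579). The brightest of the family, Mirlet7d, differed by 0.51, -0.0029 and -0.026 in pairs 1, 2 and 3. Its mean difference of 0.16 ± 0.12 came from the first pair (limma adjusted p = 0.454).

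The miR-181 and miR-30 families, found in many tissues, held 3 more of the called members. Mir181c had the smallest adjusted p of all members. It read 8.14, 8.02 and 8.08 untreated and 8.47, 8.40 and 8.46 after tamoxifen, without overlap and with little spread. It rose by 0.36 ± 0.06 (limma adjusted p = 0.0130), and 4 of the 6 fits that left out an array kept the call. Mir181d, next to it in the genome, differed by 0.17 ± 0.07 (limma adjusted p = 0.179). The 6 miR-181 members had a median change of 0.13, from -0.08 to 0.36, and Mir181b-2, at 0.31 ± 0.09, passed only with the block (limma adjusted p = 0.0779 and 0.0101).

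Mir30a read 5.74, 5.56 and 5.61 untreated and 5.98, 5.99 and 5.95 after tamoxifen. The groups stood apart, and it rose by 0.33 ± 0.07 (limma adjusted p = 0.0222), a call kept in 2 of the 6 such fits. Mir30e read 6.08, 6.12 and 6.23 untreated and 6.34, 6.48 and 6.49 after tamoxifen. Also without overlap, it rose by 0.29 ± 0.07 (limma adjusted p = 0.0412), and the call was lost after cyclic loess (limma adjusted p = 0.0953). The other 4 miR-30 members lay between -0.03 and 0.04, among them Mir30c-1 at 0.03, which shares with Mir30e the host Nfyc, a subunit of the CCAAT-binding factor NF-Y. Nfyc itself differed by 0.27 ± 0.11 (limma adjusted p = 0.178) and passed with the block (limma adjusted p = 0.0285).

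The remaining called members belonged to no listed cluster. Mir298 read 5.82, 5.58 and 5.64 untreated and 5.91, 6.08 and 6.03 after tamoxifen, and rose by 0.33 ± 0.08 (limma adjusted p = 0.0438). Mir652 read 5.09, 5.12 and 4.92 untreated and 5.35, 5.33 and 5.29 after tamoxifen, and rose by 0.28 ± 0.07 (limma adjusted p = 0.0458). Neither pair of groups overlapped, the gaps were narrow, and both calls were lost after cyclic loess (limma adjusted p = 0.0514 and 0.0528). With an array left out, the Mir298 call was kept in 2 of the 6 fits and the Mir652 call in 0. Its host Tmem164 differed by 0.18 ± 0.10 (limma adjusted p = 0.330).

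Other families stayed close to 0 or were too few to describe by more than their range. The imprinted Dlk1-Dio3 region has microRNA genes that are expressed from the maternal chromosome. Its 39 measured members had a median change of 0.01 and ranged from -0.11 to 0.31. Of these, 20 were above 0, 19 were below and 0 passed the test; the highest was Mir134, which is named here after its value was seen and passed with the block (limma adjusted p = 0.0280). The 4 measured members of the miR-200 family, known for holding cells in an epithelial state, had a median of -0.02, and the 6 of the miR-15/16 family a median of 0.03. The 4 of the related miR-130 and miR-301 genes lay between 0.14 and 0.30 with a median of 0.18, and 0 were called, or 1 with the block, Mir301.

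**Figure D4:**
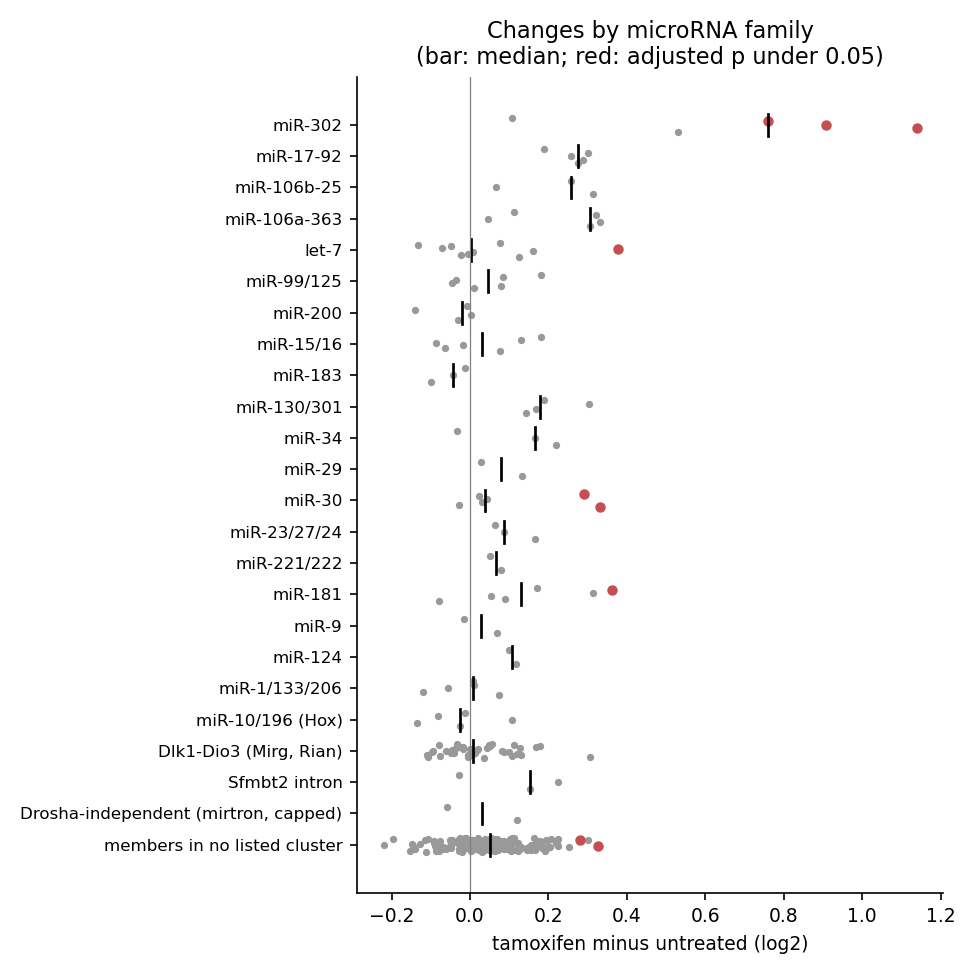
Change of each member (log2, tamoxifen minus untreated) by cluster or family, 1 point per gene, with a bar at the median and called members in red. The miR-302 median is 0.76, the 3 miR-17 paralogous clusters lie between 0.26 and 0.31, and let-7 and the 39 members of Dlk1-Dio3 are centred near 0.

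No member was called lower. The 5 of smallest p in that direction, all with tamoxifen values wholly below the untreated ones, were Mir32, Mir697, Mir10b, Mir361 and Mir329. Mir32 read 5.13, 5.18 and 5.41 untreated and 5.05, 5.06 and 4.95 after tamoxifen, a difference of -0.22 ± 0.08 (limma adjusted p = 0.151). Mir697 read 7.36, 7.54 and 7.47 against 7.21, 7.34 and 7.22, a difference of -0.20 ± 0.07 (limma adjusted p = 0.129). The other 3 differed by -0.14 to -0.11. The groups of Mir32 and Mir697 were separated by narrow gaps.

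The 10 brightest members on the untreated arrays were Mir692-1, Mir6516, Mir7-1, Mir18, Mir25, Mir346, Mir15a, Mir598, Mir139 and Mir210, with mean signals from 10.60 down to 8.79. Of these, 0 passed the test without the block. Mir598 read 9.08, 9.15 and 9.12 untreated and 9.29, 9.33 and 9.32 after tamoxifen. The groups stood apart, but the difference of 0.20 ± 0.06 passed only with the block (limma adjusted p = 0.0739 and 0.0455). Mir692-1, the brightest, overlapped between groups, at 10.61, 10.48 and 10.72 against 10.73, 10.52 and 10.89.

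Host genes were compared next, since a microRNA in an intron can be made from its host's transcript. RefSeq places 184 members within another gene, and 143 of them within a gene measured here, which gave 146 pairs with 106 host genes. Of the hosts, 6 were called higher and 4 lower, 9.43% against 7.78% of all genes. A called host had a called member in 3 of 16 pairs, and all 3 were miR-302 hairpins in Larp7, on the strand opposite to it. In the 11 pairs with a called host other than Larp7, 0 members were called and 5 had the sign of the host. With the block 13 hosts were higher and 9 lower, 20.8% against 17.4% of all genes, and 6 of 32 pairs had both called: the 4 in Larp7, Mir218-1 in Slit2 and Mir30e in Nfyc.

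Slit2, a secreted axon guidance protein, rose by 0.96 ± 0.18, and Mir218-1 within it differed by 0.25, which passed only with the block. Rb1, the retinoblastoma protein, changed by 0.73 and Mir687 differed by 0.11. Arrb1, an arrestin, fell by 0.67 while the value of Mir326 was 0.16, and Eml2, a microtubule-binding protein, fell by 0.46 while that of Mir330 was 0.18. Host and member thus had opposite signs in the latter cases, with the members' values within the range of uncalled probe sets. Across the 146 pairs Pearson's r was 0.30, a description over pairs that share hosts and arrays. Without the 5 Larp7 pairs it was 0.09 over 141. Member and host lay on the same strand in 91 pairs, on opposite strands in 17, and 38 had no strand given. Over the 91 same-strand pairs r was 0.11.

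**Figure D5:**
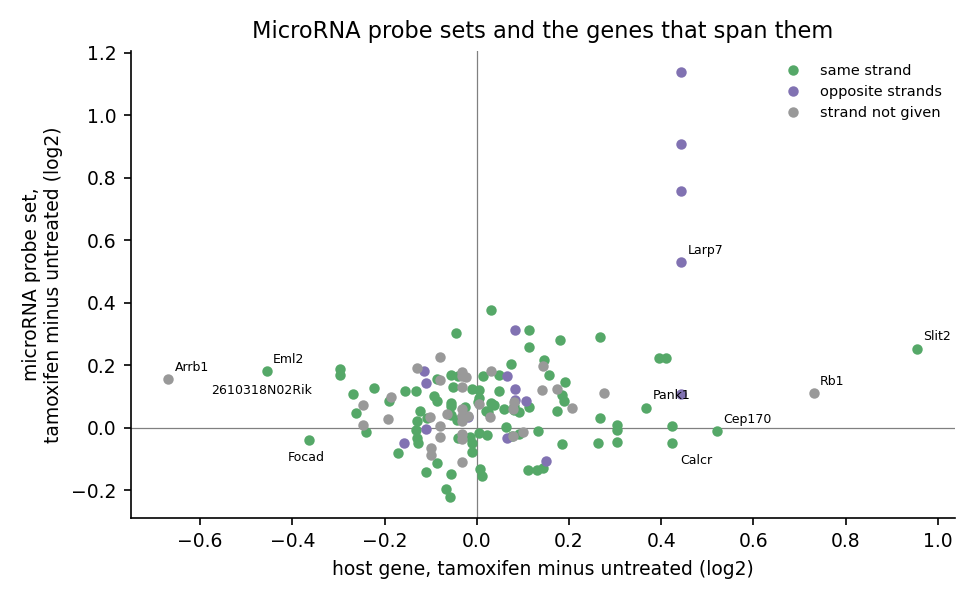
Change of each member against the change of the gene that spans it (both log2, tamoxifen minus untreated), 146 pairs coloured by relative strand, with called hosts labelled. The upper 4 points over Larp7 are Mir302a to Mir302d; the other pairs with a called host have members between -0.05 and 0.25.

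Genes that act on microRNAs gave the setting in which these probe sets were read. Dicer1 fell by 1.85 ± 0.07 on the log2 scale, from 11.42 to 9.57, with all tamoxifen arrays below all untreated ones (limma adjusted p = 3.61e-05). Of 27 measured genes of microRNA processing and silencing, 3 were higher, 1 was lower and 23 were not called, with a median change of 0.03. Those higher were Ago1, an Argonaute protein that holds the mature microRNA, at 0.93 ± 0.08, and the GW182 proteins Tnrc6a and Tnrc6b, which link Argonaute to deadenylation, at 0.64 ± 0.06 and 0.51 ± 0.06. With the block 4 were higher and 4 lower: Ago2, the Argonaute that can cut its target, was added at 0.28 ± 0.07, and Lin28a, which holds back let-7 maturation, Adar, an RNA-editing enzyme, and Prkra, a Dicer partner, at -0.30 ± 0.08, -0.28 ± 0.09 and -0.23 ± 0.12. The 8 measured microRNA host transcripts had 0 calls, and 1 with the block, Mir100hg at 0.30 ± 0.10.

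Markers were read for the cell types the cultures could hold. All 10 embryonic stem cell markers lay above the median of all genes on untreated arrays. Without the block 0 were called, and with it 2 were lower, Utf1 at -0.26 ± 0.07 and Tdgf1 at -0.24 ± 0.08 (limma adjusted p = 0.0193 and 0.0326). The mean of 8 feeder fibroblast markers was 6.62 to 6.79 on untreated arrays and 6.72 to 6.77 on tamoxifen arrays, with 0 called, or 1 lower with the block, Thy1 at -0.32 ± 0.11. Of 6 trophectoderm markers 0 were called, and with the block Tfap2c was higher, at 0.27 ± 0.08, while Eomes and Krt7 were lower, at -0.57 ± 0.23 and -0.26 ± 0.18. Of 6 primitive endoderm markers 0 were called, and with the block Sox7 was lower, at -0.28 ± 0.08. The SE given with these values are those of the fit without the block. Of 6 neural and mesodermal markers 2 were higher, Neurod1, a neuronal transcription factor, by 0.91 ± 0.18 and Kdr, a receptor of vascular growth factors, by 0.26 ± 0.07. The Kdr call (limma adjusted p = 0.0468) was kept in 0 of the 6 fits that left out an array and was lost after cyclic loess (limma adjusted p = 0.0602). With the block Sox1, a neural transcription factor, was higher too, at 0.29 ± 0.09. Whether these markers bear on the microRNA genes was not tested.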

How the data were processed

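RNA of 3 untreated and 3 tamoxifen samples was measured on Affymetrix arrays. Per the submitters' processing notes, the authors used RMA and Affymetrix Expression Console 1.2, which turns probe intensities into background-corrected, quantile-normalised log2 values for each probe set. The log2 scale was read from the deposited values, 3.18 to 14.64. For the array, a genome build is not given in the sources used here. Of 35556 probe sets, 21789 had 1 gene symbol, 1621 several and 12146 none; 61 with a microRNA gene among several symbols were not named. The members and lists were chosen with earlier results of these data known.

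The groups were tested two-sided in R 4.3.3 with lmFit and eBayes of limma 3.58.1, on all 19938 genes without a filter, with calls at a Benjamini-Hochberg adjusted p under 0.05. The code was tested on simulated data. Arrays of equal number deviated together from their group means, with correlations of 0.356, 0.345 and 0.389, against -0.254 to -0.115 for arrays of unequal number. Deviations from a group mean sum to 0, so the negative values follow from the positive ones and are no separate evidence of pairing. The labels state no pairing. Because of the positive correlations the blocked fit, which takes arrays of equal number as pairs, was run too. Named genes were the members of 6 listed clusters, the 10 brightest, the called members, the 5 lower members of smallest p, their hosts, Larp7 and Dicer1. Sequences and hosts came from RefSeq tables of GRCm38.p6: 270 members had a mature sequence and 258 a hairpin. Alternatives covered merging, filtering, normalisation, variance prior, array weights, thresholds and each array left out. The number of arrays limits the precision.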

Additional observations from a re-analysis of the deposited data

How the results depend on the processing

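The 9 members called higher became 20 with the replicate block, 15 with array weights and 20 at an adjusted p under 0.1. They became 5 after renewed quantile normalisation, 5 after cyclic loess, 3 of 68 without the dimmest 40% of genes, 0 at an adjusted p under 0.01 and 0 when all probe sets of the table were fitted. Leaving out each array gave 0 to 9: of the untreated group 5 without replicate 1, 0 without replicate 2 and 2 without replicate 3, and of the tamoxifen group 9, 1 and 0 in the same order. Other settings gave 7 to 9, and members called lower stayed at 0 in every setting run. Calls over all genes, in either direction, varied too. They were 1552 in the main fit, 3472 with the block, 2511 with array weights, 1535 after renewed quantile normalisation and 1509 after cyclic loess. Without the dimmest 40% of genes they were 1724 of 11963, and with all probe sets fitted 273. Without untreated replicate 1, 2 or 3 they were 1213, 516 and 908. Without tamoxifen replicate 1, 2 or 3 they were 1580, 355 and 539. Beyond those given above, the block changed no call among the 46 members named by the rule. Larp7 kept its change of 0.44 over all probe sets of the table but missed the threshold (limma adjusted p = 0.0689), as it did at an adjusted p under 0.01; with each array left out its change was 0.39 to 0.51. Apart from the filter and the smaller groups, which are parts of those settings, the cause was not tested. Most members were dim, and RMA gives no detection call, so a microRNA gene with no change here may lie below what its probe set can show.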
